A study of Mus musculus with 2 samples.

Results

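The 10 genes described here encode subunits of the transcription factor AP-1 and proteins that are made early after a stimulus. They are Fos, Fosb, Fosl2, Jun, Junb, Jund, Atf3, Egr1, Ier2 and Dusp1. They were picked by symbol from the 19294 genes of the count table, and all 10 were in it. Organoids of the mouse intestine, miniature epithelia grown from crypts, were sequenced (mRNA-seq) as 1 untreated culture, the control, and 1 culture given DSS. Both cultures carried the Lgr5-EGFP-IRES-creERT2 allele, in which EGFP and an inducible Cre are driven from the stem cell gene Lgr5. Both grew in medium with EGF, Noggin and R-spondin, and both are labelled day 4. DSS (dextran sulfate sodium) is a sulfated polysaccharide that injures the epithelium, and the DSS dose of the sequenced culture is not given in the labels. Per the study's methods, DSS-treated organoids were freed from the gel by a warm enzymatic digestion before lysis, and the harvest of the control is not described apart.

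AP-1 is a dimer of leucine zipper proteins. The Jun proteins pair with each other or with Fos proteins, while Fos proteins need a Jun partner to bind DNA. MAP kinases switch on transcription of the Fos and Jun genes within minutes of growth factors, cytokines or stress, and the mRNAs of most such genes decay quickly. In the intestine, AP-1 is known for its part in proliferation and in the response of the epithelium to injury.

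With 1 library per condition there was no replicate spread, so no test was made, and the ranges given in brackets or as from and to are 95% intervals for counting error only. Where a sentence gives a pair of counts or CPM values without naming the libraries, the control comes first. A log2 ratio is that of DSS over control after scaling with TMM factors, where TMM is a scaling that assumes most genes to be alike between libraries. Depth was 65493032 counts for the control and 59746968 for DSS. The labels call the cells intestinal stem cells, but the 6 stem cell markers summed to 1595 CPM (TMM-scaled counts per 1000000 counts of the library) without DSS and to 211 CPM with it. All 7 cycling markers were also lower, with a summed log2 ratio of -2.46. All 12 enterocyte markers, all 7 goblet cell markers and all 7 enteroendocrine markers were higher in the DSS library, with summed log2 ratios of 3.12, 3.76 and 2.39. All 6 Paneth cell markers and the 3 listed of 5 tuft cell markers were lower, with summed log2 ratios of -1.42 and -1.44. By RT-PCR the study reported Lgr5 and Lyz lower with DSS, but Vil1, Muc2 and Chga at similar levels. In these libraries Lgr5 and Lyz1 had log2 ratios of -3.78 and -1.06, and Vil1, Muc2 and Chga of 1.25, 4.98 and 2.60. Whether the RT-PCR used the same cultures is not stated. The 96 genes with symbols starting Rps or Rpl and a number had a summed log2 ratio of -1.43. Besides ribosomal protein genes, they include kinase genes such as Rps6ka5. The 2 mitochondrial ribosomal RNA genes listed went from 1355 CPM to 4768 CPM, a log2 ratio of 1.82. In bulk RNA, more cells of a type and more RNA per cell cannot be told apart, and the part of these shifts in the values of the 10 genes was not tested. Markers of other tissues were low. Of 9 immune cell markers, 6 were not listed in the table, Ptprc and Cd3e among them, and the 3 listed summed to 12.2 CPM without DSS and 23.3 CPM with it. The 3 listed of 8 mesenchymal markers summed to 0.503 CPM and 0.933 CPM, and the 2 listed of 4 endothelial markers to 0.866 CPM and 1.39 CPM.

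The 250 bases before the start are shown for 4 genes, so that the letters searched for can be seen in place. Dusp1, Atf3, Fosb and Fos were chosen because they had log2 ratios above 1 and held the letters searched for. Jun, at 1.40, was also above 1, but its window did not hold them and is not shown. Sequences are from RefSeq on GRCm38.p6, read 5′ to 3′ along the gene, and 8 of the 10 genes had an entry. Egr1 and Ier2 had none. Capitals mark the cAMP response element (CRE), TGACGTCA, or its half-site, TGACG, on either strand. Each CRE also holds the half-site on both strands.
Dusp1, chr17:26508473-26508722, minus strand: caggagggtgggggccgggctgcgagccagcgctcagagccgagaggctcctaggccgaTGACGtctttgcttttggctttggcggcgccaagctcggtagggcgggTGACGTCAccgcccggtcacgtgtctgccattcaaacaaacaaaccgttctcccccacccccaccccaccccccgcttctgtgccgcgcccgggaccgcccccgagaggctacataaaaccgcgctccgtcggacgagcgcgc
Atf3, chr1:191183334-191183583, minus strand: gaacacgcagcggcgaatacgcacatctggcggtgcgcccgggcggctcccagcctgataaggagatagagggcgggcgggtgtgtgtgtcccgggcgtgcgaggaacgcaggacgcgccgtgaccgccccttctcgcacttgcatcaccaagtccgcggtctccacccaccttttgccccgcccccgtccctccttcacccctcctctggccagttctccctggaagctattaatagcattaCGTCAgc
Fosb, chr7:19310046-19310295, minus strand: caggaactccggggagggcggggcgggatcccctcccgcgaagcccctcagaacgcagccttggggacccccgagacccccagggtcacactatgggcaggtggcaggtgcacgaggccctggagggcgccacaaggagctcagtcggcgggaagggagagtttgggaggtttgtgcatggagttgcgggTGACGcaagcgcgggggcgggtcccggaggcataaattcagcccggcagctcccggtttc
Fos, chr12:85473640-85473889, plus strand: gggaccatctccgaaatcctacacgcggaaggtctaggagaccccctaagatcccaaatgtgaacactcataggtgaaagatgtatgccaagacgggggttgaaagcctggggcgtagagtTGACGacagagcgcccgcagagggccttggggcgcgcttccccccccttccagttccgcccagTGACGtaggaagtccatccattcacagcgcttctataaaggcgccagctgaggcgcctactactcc

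The half-site was present in 5 of the 8 windows, those of Fos, Fosb, Junb, Atf3 and Dusp1, and in 17.8% of 32851 RefSeq windows of the same length. GC content of these 5 windows ran from 58.4% to 68.8%, and the RefSeq windows were not matched for it. The whole CRE was found in the Dusp1 window alone of the 8, from 143 to 136 bases before the start, and in 1.55% of all windows. The Fos window also held a TATA box, TATAAA, from 33 to 28 bases before the start, as did 12.4% of all windows on either strand. None of the 8 windows held the AP-1 site TGANTCA, present in 6.75% of all windows, or the CArG box bound by serum response factor, present in 1.47%. This holds for these letters in these windows only. Sites with other letters and sites further upstream were not searched for, and Egr1 and Ier2 had no window. The search therefore cannot show that the genes lack such sites. A match of letters is a description and not a measured binding site. The Jund window lies before the first start of the RefSeq gene, and other starts were not searched. The Fosb window lies before a start inside its RefSeq gene, which reaches 19310118 on the minus strand. Its half-site is within that gene.

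The 10 genes were all at or above their control level in the DSS library under TMM scaling. Dusp1, Atf3 and Fosb differed most, by 9.62-fold, 6.43-fold and 4.00-fold. Jun was 2.64-fold and Fos 2.11-fold higher, Junb, Fosl2, Jund and Egr1 lay between 1.51-fold and 1.89-fold, and Ier2 was level at 1.0-fold. Summed, the 10 genes were at 1335 CPM without DSS and 2864 CPM with it, which is a log2 ratio of 1.10 (1.09 to 1.11). All 10 genes had at least 10 counts in a library, the minimum used for counts of genes. Of them, 5 reached a log2 ratio of 1 (2-fold), as did 19.3% of the 17235 genes with that minimum, and 3 reached 2 (4-fold), as did 7.87% of all. None was at -1 or less, where 20.2% of all genes were, or at -2 or less, where 6.54% were. The median log2 ratio of the 10 genes was 1.0 and that of all genes -0.06.

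**Figure D1:**
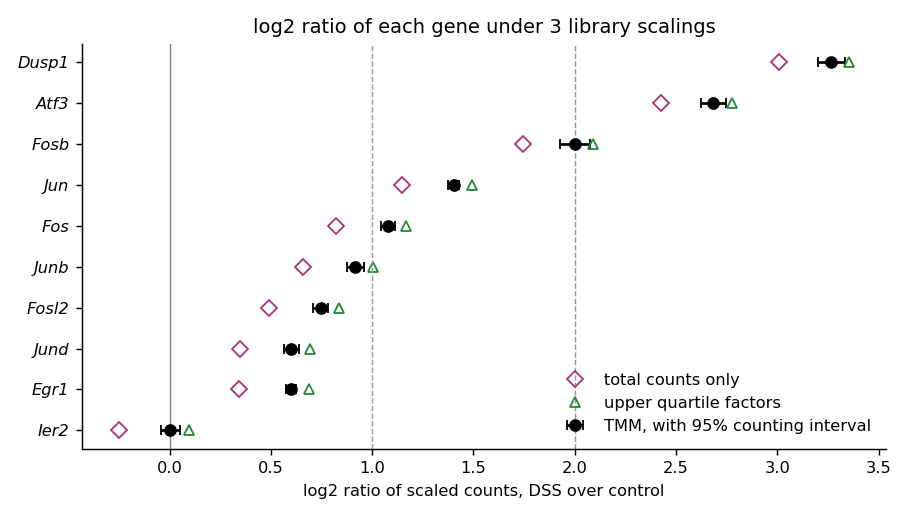
The log2 ratio of scaled counts, DSS over control, for each gene (vertical axis). Black points are TMM values with 95% counting intervals, open diamonds use total counts only, open triangles use upper quartile factors, and dashed lines stand at 1 and 2. Every gene moves by the same amount with the scaling, and Ier2 changes sign, from 0.00 to -0.25 with total counts.

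Scaling decided the calls of genes near a line. With total counts only, all values were lower by 0.26, which left 4 genes at 1 or more against 15.4% of all genes, since Fos was then at 0.82. Under that scaling 37.1% of all genes past 1 in either direction were higher in the DSS library, against 48.9% with TMM. Upper quartile factors raised all values by 0.09 and brought Junb past 1, which made 6 genes at 1 or more against 21.2% of all genes. Fosb stood on the second line, at 2.0 (1.93 to 2.08), so its place among the 3 genes was within counting error.

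Among the Fos proteins, Fos itself was read 11789 times in untreated organoids and 18997 times in treated ones. Scaled, this was 165 CPM and 347 CPM, and the log2 ratio was 1.08 (1.04 to 1.11). Fos is the classic immediate early gene and gives AP-1 a strong activation domain. Fosb, which makes a full-length and a truncated protein by splicing that counts per gene cannot separate, had 1896 and 5797 counts, or 26.5 CPM and 106 CPM. Fosl2 encodes FRA2, a Fos protein without the strong activation domain of Fos. It had 10156 and 13012 counts, or 142 CPM and 238 CPM, for a log2 ratio of 0.75 (0.71 to 0.78). The Fos family members thus differed from each other in their ratios. Ratios of counts within a library need no scaling factor, and by this measure Fosb exceeded Fos by 0.92 on the log2 scale, with an exact conditional interval from 0.84 to 1.01, and Fosl2 by 1.25, from 1.17 to 1.34. Fos exceeded Fosl2 by 0.33, from 0.28 to 0.38.

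Among the Jun proteins, the order was Jun, Junb and Jund. Jun, the main partner of Fos in AP-1 and a target of the kinase JNK, went from 17293 counts without DSS to 34925 with it, or from 242 CPM to 639 CPM. Its log2 ratio was 1.40 (1.38 to 1.43), and its gain of 397 CPM was the largest of the 10 genes. Junb, which often restrains what Jun does in the cell cycle, had 7650 and 11023 counts, 107 CPM and 202 CPM, for a log2 ratio of 0.92 (0.87 to 0.96). Jund, the most steadily expressed of the family, had 11775 and 13640 counts, 165 CPM and 249 CPM, for a log2 ratio of 0.60 (0.56 to 0.64). Within the libraries, Jun exceeded Junb by 0.49, from 0.44 to 0.54, and Jund by 0.80, from 0.76 to 0.85, and Junb exceeded Jund by 0.31, from 0.26 to 0.37. All 6 differences within the Fos and Jun families had counting intervals that left out 0, and how far single cultures vary in them was not measured. Reads from the opposite strand can touch these values where strand was not used in counting, which is not given in the sources used here. The antisense gene Junos overlaps 689 bases of Jun, with 134 reads in untreated and 109 in treated organoids, and the antisense gene Gm11175 overlaps 919 bases of Jund and is not in the table.

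The make-up of each family was compared per length of transcript, as CPM per kb of transcript (RPKM). The Fos family, with Fosl1 added, summed to 107 RPKM without DSS and 230 RPKM with it. Fos held 73.0% of the family without DSS and 71.6% with it. The share of Fosb was 6.54% in the control, with an interval from 6.26% to 6.84%, and 12.2% in the DSS library, from 11.9% to 12.5%. Fosl2 went the other way, from 20.3% to 15.8%. Fosl1, which encodes FRA1, was scarce, at 0.203% and 0.430%. The Jun family summed to 233 RPKM without DSS and 461 RPKM with it. Jund was its largest part in the control, at 42.2%, and Jun in the DSS library, at 43.4% with an interval from 43.0% to 43.8%. Jun had held 32.5% in the control, and Jund held 32.4% in the DSS library, while Junb was at 25.3% and 24.2%. These are shares of mRNA and not of protein or of dimers, and they depend on the transcript chosen for each gene.

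**Figure D2:**
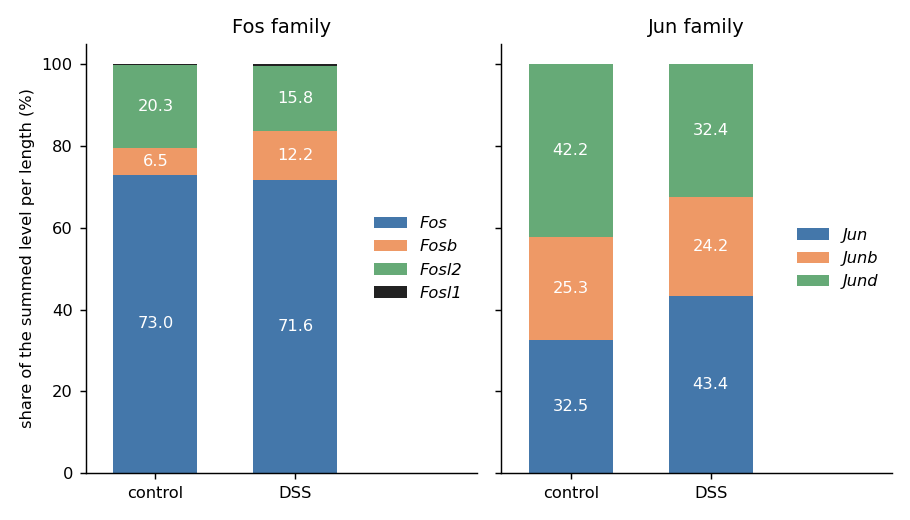
Share of the summed level per transcript length (vertical axis, %) held by each Fos family gene (left) and each Jun family gene (right) in the control and the DSS library, 1 library each. Fosb goes from 6.5% to 12.2% of the Fos family and Jun from 32.5% to 43.4% of the Jun family.

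Atf3 and Dusp1 had lower control levels per length than most of the 10 genes and the largest ratios among them. Atf3 is a leucine zipper protein induced by many stresses that pairs with Jun proteins and often represses its targets. Its 2551 counts without DSS and 12521 with it were 35.6 CPM and 229 CPM, for a log2 ratio of 2.68 (2.62 to 2.75). Dusp1 encodes a nuclear phosphatase that switches off JNK, p38 and ERK, the kinases upstream of AP-1. It had 2039 and 14984 counts, or 28.5 CPM and 274 CPM, for a log2 ratio of 3.27 (3.20 to 3.33). Of all genes with the count minimum, 2.36% had a higher log2 ratio than Dusp1 and 4.34% a higher one than Atf3.

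Egr1 and Ier2, both also immediate early genes, had smaller differences. Egr1 encodes a zinc finger transcription factor that is switched on by serum response factor and its ERK-driven partners. It was the most abundant of the 10 genes in the control, with 21483 counts and 300 CPM, and had 24865 counts and 455 CPM in the DSS library. Its log2 ratio was 0.60, from 0.57 to 0.63, and 28.1% of all genes had a higher one. Its relatives Egr2 and Egr3, named after their values were seen, had log2 ratios of 1.26 and 1.67 at far lower levels, with 737 and 165 counts in the control. Ier2, which encodes a small nuclear protein, had 8888 counts before scaling without DSS and 6806 with it, or 124 CPM in each. Its interval, from -0.04 to 0.05, held 0, and 47.9% of all genes had a higher log2 ratio.

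**Figure D3:**
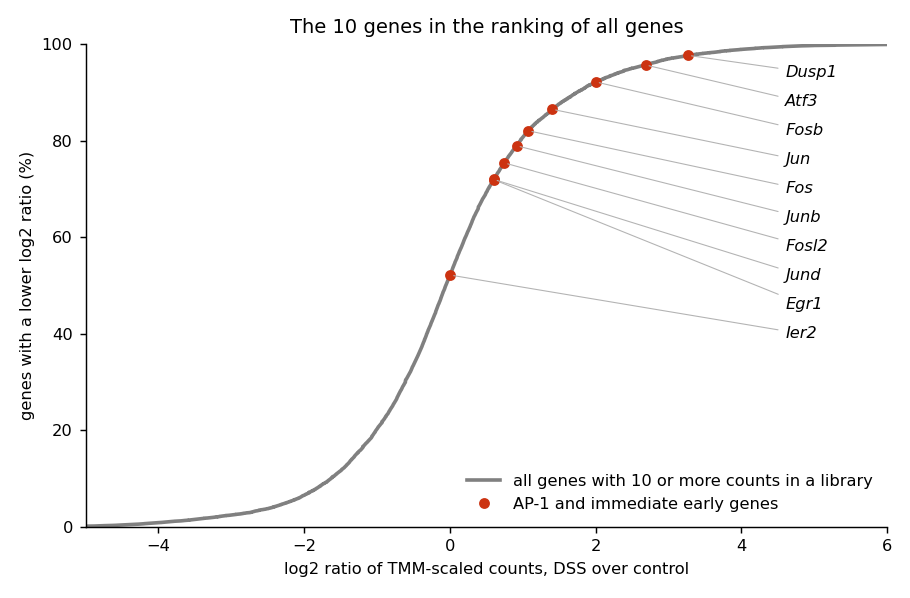
Share of all 17235 genes with a lower log2 ratio (vertical axis, %) against the log2 ratio of TMM-scaled counts (horizontal axis, drawn from -5 to 6). Red points are the 10 genes, which run from Ier2 near the middle of the ranking to Dusp1, above which 2.36% of genes lie.

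Levels per length allow a comparison between genes, but the order depends on the transcript chosen for each gene. In the control the order was Egr1 at 98.9 RPKM, Jund at 98.6, Ier2 at 81.6, Fos at 78.1, Jun at 75.8, Junb at 59.1, Fosl2 at 21.7, Atf3 at 18.0, Dusp1 at 14.3 and Fosb at 7.0 RPKM. Egr1 and Jund did not differ beyond counting error there, and the intervals of Fos and Jun overlapped. Overlap of intervals does not by itself show that levels are alike. In the DSS library the order was Jun at 200.3 RPKM, Fos at 164.8, Egr1 at 149.8, Jund at 149.6, Dusp1 at 137.7, Atf3 at 115.4, Junb at 111.5, Ier2 at 81.8, Fosl2 at 36.4 and Fosb at 28.0 RPKM. Egr1 and Jund again did not differ beyond counting error, and the intervals of Atf3 and Junb overlapped. Dusp1 went from place 9 to place 5 and Ier2 from place 3 to place 8 in this order. Fosb was last in both libraries, although its level was above that of 53.3% of genes with a matched transcript without DSS and of 84.1% with it. Even in the control, Egr1, Jund, Ier2, Fos, Jun and Junb were at higher levels per length than at least 93.0% of genes.

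**Figure D4:**
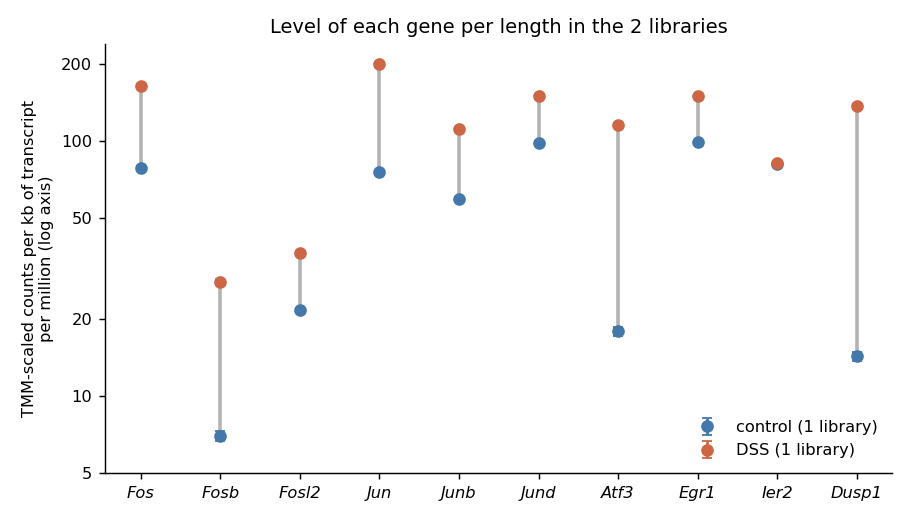
Level of each gene per transcript length in the control (blue) and the DSS library (orange), in RPKM on a log axis, with 95% counting intervals that are mostly smaller than the points. Atf3, Dusp1 and Fosb start lowest and differ most, and the points of Ier2 lie on each other.

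Most of the 10 genes span a short stretch, and all have few exons. Their RefSeq positions on GRCm38.p6 span 1522 bp for Ier2 on chromosome 8 (84661331 to 84662852), and Fosl2 on chromosome 5 is the longest (32136472 to 32157840). Jun on chromosome 4 (95049036 to 95052222), Junb on chromosome 8 (84976909 to 84978748), Jund and Ier2 have a single exon in the transcripts used. That is 4 of 10 genes, or 40%, against 2.60% of 13401 protein-coding genes with the count minimum. The gene span was under 5000 bp for 7 of 10, against 13.2%. Fosl2, at 22042 bp in the transcript used, was above the median of 21383 bp for the protein-coding genes. The median transcript was 2049 nt for the 10 genes and 2984 nt for the protein-coding genes. Fosl2, Fosb, Jun and Egr1 had transcripts longer than the latter. The pentamer ATTTA, the core of the AU-rich elements that speed mRNA decay, occurred 8 times in the 3′ UTR of Fosl2, 4 times each in Fos, Jun and Dusp1, 3 times in Atf3, 2 times each in Junb and Egr1, 1 time each in Fosb and Jund, and 0 times in Ier2. The median was 2.5 for the 10 genes and 1 for the protein-coding genes. Of other genes with these features, the median log2 ratio was -0.09 for 345 other single-exon genes, -0.06 for 1767 other genes spanning under 5000 bp and -0.01 for 4639 other genes with at least 3 pentamers.

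Other AP-1 proteins were of mixed direction. Of 12 listed genes, 10 were in the table and Batf and Batf3 were not. Of the 10, 5 reached a log2 ratio of 1, or 50%, against the 19.3% of all genes, and 1 was at -1 or less, or 10% against 20.2%. Batf2 had 9 and 78 counts, and its log2 ratio of 3.50 had an interval from 2.51 to 4.69. Fosl1 had 29 and 101 counts and a log2 ratio of 2.19. The small Maf factors Mafk and Maff were at 1.62 and 1.15, and the third of them, Mafg, was at -0.03. Jdp2, a repressor that pairs with Jun proteins, was at -1.01. Atf7 was at -0.33 and Atf2, which pairs with Jun, at -0.21, and Maf was at 0.04.

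Other immediate early genes, 51 in number and all in the table, were higher more often than lower. Of them, 24 reached a log2 ratio of 1, which is 47.1% against 19.3% of all genes, and 3 were at -1 or less, or 5.88% against 20.2%. The median was 0.96. With total counts 39.2% reached 1 against 15.4% of all genes, 7.84% were at -1 or less against 26.2%, and the median was 0.70. This list, like the other related lists, was chosen with earlier results of these data known. Nr4a3, an orphan nuclear receptor, had 37 and 347 counts and a log2 ratio of 3.62. Sgk1, a kinase that raises sodium uptake, was at 3.05, Klf2 at 2.93 and Plk3, a stress-responsive kinase, at 2.37. Myc, also an early gene of growth stimulation, was the lowest, at -1.97, with 5101 counts without DSS and 994 with it.

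Other phosphatases act on MAP kinases as Dusp1 does. Of 10 such genes, 4 reached a log2 ratio of 1, which is 40% against 19.3% of all genes, and 1 was at -1 or less, or 10% against 20.2%. Dusp5 and Dusp6, which act on ERK and are also feedback genes of that pathway, were at 2.10 and 1.30, with 4830 and 4570 counts in the DSS library. Dusp10, which acts on JNK and p38, was at 2.18. Dusp2 was at 3.17, with 30 and 206 counts. Dusp7, which acts on ERK, was at -2.41, from 578 to 83 counts.

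The kinases and factors upstream had a median near that of all genes in mRNA. Of 31 listed genes, 30 were in the table. Their median log2 ratio was 0.06, which was -0.19 with total counts, and 3 reached 1, or 10% against 19.3% of all genes, while 1 was at -1 or less, or 3.33% against 20.2%. Rps6ka5, which encodes the histone kinase MSK1, was at 1.54, Mapk11 at 1.15, Map2k2 at 1.11 and Map2k5 at -0.73. Elk1, a partner of serum response factor, was at -1.25, with 580 and 186 counts. The activity of these kinases rests on phosphorylation, which was not measured. Of 6 relatives of Atf3 in the CREB and ATF family, 1 reached 1 and 1 was at -1 or less, or 16.7% each against the same shares, and their median of 0.04 was -0.22 with total counts. Creb5 was at 1.96, Atf5 at -1.10, Atf1 at -0.87, Crem at 0.72 and Atf4 at 0.54.

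Genes described elsewhere to have AP-1 sites did not share a direction. Of 24 listed genes, 17 were in the table and 7 were not, among them Il6, Ptgs2 and Mmp13. Of the 17, 7 reached 1, which is 41.2% against 19.3% of all genes, and 4 were at -1 or less, which is 23.5% against 20.2%. Their median was 0.75. Under total counts 4 reached 1, or 23.5% against 15.4%, and 5 were at -1 or less, or 29.4% against 26.2%. Ereg, a ligand of the EGF receptor, was highest, at 3.97 with 49 and 586 counts, and Sprr1a was at 3.21. Plaur, the urokinase receptor, was at 1.38. Ccnd1, which encodes cyclin D1, was at -2.94, with 8202 and 819 counts.

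**Figure D5:**
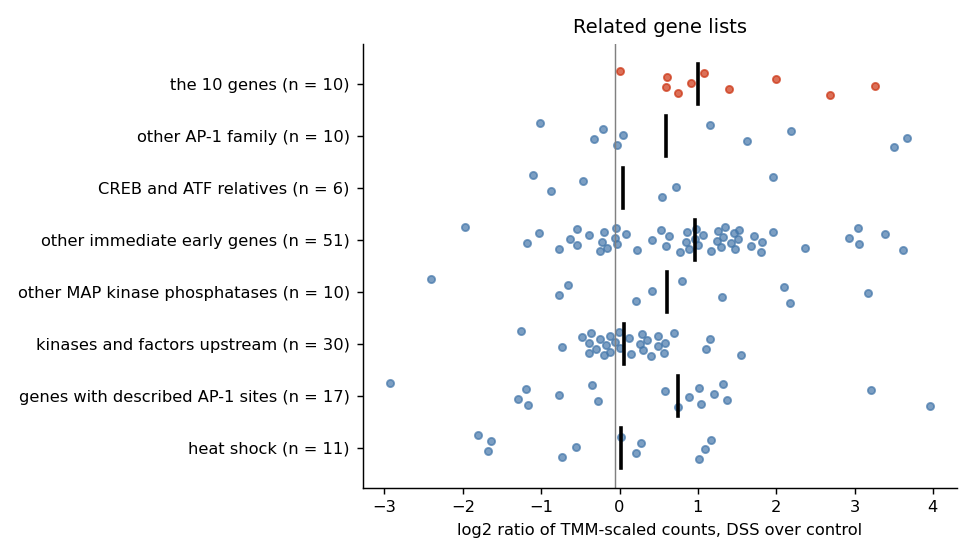
The log2 ratio of TMM-scaled counts (horizontal axis) of each gene in the related lists, with the 10 genes in red, each list's median as a black bar and the median of all genes as a grey line. Each point is 1 gene with at least 10 counts in a library, and the medians run from 0.02 for heat shock to 1.0 for the 10 genes.

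Heat shock genes, a second class of quickly induced stress genes, were read because a warm digestion before lysis is described. Of 11 genes, 3 reached 1 and 3 were at -1 or less under TMM, or 27.3% each against 19.3% and 20.2% of all genes, and the median was 0.02. The inducible Hspa1a and Hspa1b, near-identical copies whose reads may be split between them, were at 1.17 and 1.01. With total counts, none of the 11 was at 1 or more, where 15.4% of all genes were, and the median was -0.24. The mitochondrial chaperones Hspd1 and Hspe1 were at -1.80 and -1.68, and Hsph1 was at -1.64. The digestion is described for DSS-treated organoids and not named for the control, and its part in the levels and differences of the 10 genes was not tested.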

How the data were processed

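Stranded poly(A) RNA libraries of 1 control and 1 DSS culture were compared, for which the authors deposited unnormalized counts of reads. The submitters' processing notes name HISAT2 and StringTie. The counting program, its strand setting and the genome build are not given in the sources used here. The files named as FPKM held the same counts for all 19294 genes and were not used further. No gene of the table had a count of 0, so genes unseen in either library are left out.

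Counts were scaled over the whole table with TMM factors (1.09 for control and 0.915 for DSS) in edgeR 4.0.16 under R 4.3.3. Log2 ratios have exact Clopper-Pearson 95% intervals, differences between genes have exact conditional intervals, and both cover counting error only. Genes were tallied where either library had 10 counts or more. The computation of ratios and intervals was checked on simulated counts with known ratios. Levels per length used the longest GENCODE vM21 transcript matched by RefSeq accession or else by symbol, found for 88.6% of genes. The 10 genes and the 7 related lists were chosen with earlier results of these data known. From each list, up to 5 genes with the largest absolute log2 ratio and at least 50 counts in a library were named, and all of the other AP-1 genes, except for some genes under this rule that are not reported here. As alternatives, libraries were scaled by total counts, by upper quartile or by the size factors of DESeq2 1.42.0, ratios were centred on the median gene, the control was thinned to the DSS depth, 2 was added as a prior count, and other count minimums were set. Other steps used Python 3.11.15, numpy 2.4.6, scipy 1.17.1, pandas 2.3.3 and matplotlib 3.10.9.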

Additional observations from a re-analysis of the deposited data

How the results depend on the processing

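The median log2 ratio of the 10 genes, 1.0 with TMM, was 0.74 with total counts, 1.09 with upper quartile factors, 1.05 once centred on the median gene and 1.33 as a mean in place of the median. With the control thinned to the DSS depth, DESeq2 size factors or a prior count of 2 it moved by less than counting error. Using no filter, or at least 10 counts in both libraries, could not move it, since all 10 genes passed either way. The count of genes at 1 or more ran from 4 to 6 and that at 2 or more from 2 to 3, and none was at -1 or less, under the alternatives tried. The share of all genes moved as well. At 1 or more it was 15.4% with total counts and 21.2% with upper quartile factors. At 2 or more it was 6.31% and 8.54%, and at -1 or less 26.2% and 18.3%. Fosb, at 2.0, was below 2 with total counts, a prior count of 2 and thinning. The sign of Ier2 changed with total counts, to -0.25. The other 9 genes were above 0 under each alternative. The 6 differences within the Fos and Jun families stayed within their intervals after thinning. No paired analysis was possible because each condition has 1 library, and no library could be left out for the same reason. Counting error is small at these depths, and the variation between cultures was not measured.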
